A study of Mus musculus with 6 samples.

Results

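Genes that encode structural, adhesive and metabolic proteins of radial glia and early astrocytes were followed in embryonic mouse forebrain: Nes, Vim, Fabp7, Slc1a3, Tnc, Ptprz1, Prom1, Glul, Aldoc and Gja1. They were taken as a named set of 10 genes from the 33084 genes of a raw count table, and all 10 were found by symbol and passed the filter on low counts. RNA was sequenced from forebrains of Dyrk1a<DlxCre/+> embryos (mutants, n = 3 libraries) and wild-type embryos (controls, n = 3 libraries), all at embryonic day 15.5. In the mutants Dyrk1a, which encodes a dual-specificity protein kinase, is inactivated conditionally in the Dlx5 domain, where GABAergic neurons of the ventral forebrain arise. The genotype carries 1 wild-type allele (+) as labelled, and whether the controls have the Cre driver or the conditional allele is not stated. Nor do the labels say whether the embryos shared a litter, so the tests measure the spread between these libraries.

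Radial glia are the neural stem cells of the developing forebrain. Their cell bodies divide beside the ventricle, their long fibres guide migrating neurons, and late in gestation they turn to making astrocytes. Intermediate filaments, a brain lipid-binding protein, a glutamate transporter, matrix and adhesion proteins and gap junction channels mark them. Many of these proteins remain in astrocytes, and several occur in oligodendrocyte precursors, blood vessels or meninges too. A Cre driver of the Dlx5 domain acts mainly in ventral precursors and their neurons, whereas radial glia line the whole forebrain. The libraries were made from whole forebrain and do not separate targeted cells from others.

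The libraries held between 25360030 and 28339650 counts in mutants and between 24646616 and 38315004 in controls. Emx1 and Neurod6, which mark the cortex, had at least 21.9 CPM (counts scaled to a common library size) in every library, and the hindbrain gene Hoxb3 at most 0.12 CPM. Dyrk1a itself stood at 175 ± 14.6 CPM in mutants and 177 ± 7.58 CPM in controls (SD, n = 3 each); this count covers the whole gene and does not single out the deleted part. The replicate 3 libraries of both genotypes stood apart from the other 4 along the first principal component, which held 37.4% of the variance. Values within replicates 1 and 2 and within replicate 3 are therefore given with Nes, Vim and Gja1, and for some other genes where the alternatives are described. In bulk tissue, fewer cells of a type and less RNA per cell cannot be told apart.

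The genes lie at 10 separate places of the GRCm38 genome, with coordinates from GENCODE M21. Nes (ENSMUSG00000004891) lies on chromosome 3 from 87971078 to 87980451 and Vim (ENSMUSG00000026728) on chromosome 2 from 13573927 to 13582826, both on the forward strand. Fabp7 (ENSMUSG00000019874) and Gja1 (ENSMUSG00000050953) share chromosome 10, at 57784881 to 57788450 and 56377330 to 56402513, with their starts 1408 kb apart. The others on the forward strand are Ptprz1 (ENSMUSG00000068748; chromosome 6, 22875502 to 23052916), Glul (ENSMUSG00000026473; chromosome 1, 153899944 to 153909723) and Aldoc (ENSMUSG00000017390; chromosome 11, 78322968 to 78327781). On the reverse strand lie Slc1a3 (ENSMUSG00000005360; chromosome 15, 8634124 to 8710764), Tnc (ENSMUSG00000028364; chromosome 4, 63959785 to 64047015) and Prom1 (ENSMUSG00000029086; chromosome 5, 43993620 to 44102032). Tnc, Prom1 and Glul share exon bases with a gene on the other strand, and no source used here gives the strand setting of HTSeq. Those partners were scarce: over the 6 libraries 8030451A03Rik had 20 counts against 36543 of Tnc, Gm16401 had 438 against 11844 of Prom1, and Teddm2 had 528 against 23745 of Glul.

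Promoter sequences came from RefSeq on GRCm38.p6 and run from 250 bases before to 50 bases after each annotated start. All 10 genes matched, with 13 promoters, since Tnc, Prom1 and Aldoc have 2 starts each. They were searched on both strands for 4 motifs: TGGGAA, bound by the Notch effector RBPJ; ATGCAAAT, the octamer of POU factors; TGANTCA, bound by AP-1; and TTGGCA, a half-site of nuclear factor I. Nes, Vim, Slc1a3, Ptprz1 and Glul matched none of the 4 motifs. Among them Nes varied more between libraries of a group than Prom1 and Aldoc did. Windows of 30 bases are shown for some of the matches in Tnc, Aldoc, Prom1 and Gja1. The motif is in capitals, 5′ to 3′ on the strand of the gene. None of these motif matches overlapped another.
Tnc, octamer, chr4:64047113-64047142, reverse strand: ctataaattgtATGCAAATggtccgttagc
Tnc, RBPJ motif, chr4:64047000-64047029, reverse strand: aaaaaaaaaaagTGGGAAaggatgtctgga
Tnc, nuclear factor I half-site, chr4:64046938-64046967, reverse strand: cctatataagccTGCCAAagctggctgctc
Aldoc, RBPJ motif, chr11:78322934-78322963, forward strand: ggttccatgatgTGGGAAgggcatcgtctc
Prom1, RBPJ motif, chr5:44101835-44101864, reverse strand: ggacgcaacaggTTCCCAgagtcctggagt
Gja1, AP-1 motif, chr10:56377270-56377299, forward strand: ctccttccagtTGAGTCAgtggcttgaaac

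TTCCCA and TGCCAA are TGGGAA and TTGGCA read on the opposite strand. The RBPJ motif was in 4 of the 10 genes (Fabp7, Tnc, Prom1 and Aldoc) and in 6 of their 13 promoters, against 25.6% of all 32851 promoters of the table. The overlapping promoters of Tnc share the RBPJ site shown. The half-site of nuclear factor I was in Tnc and Aldoc, in 2 of the 13 promoters, against 14.1% of all promoters. The AP-1 motif was in Prom1 and Gja1, in 3 of the 13 promoters, against 7.81%. The octamer was in both overlapping promoters of Tnc and in no other of these genes, against 1.74%. A match of letters is a description of the window and does not show binding.

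Levels were compared between genes as CPM per kilobase of annotated exon. Fabp7, whose product shuttles fatty acids in radial glia, had the highest level of the set in each of the 6 libraries, at 242 ± 12.7 CPM per kb in mutants and 225 ± 30.7 in controls (SD, n = 3 each). Vim, the intermediate filament of radial fibres, was next in each library, at 67.2 ± 7.12 CPM per kb in mutants and 58.7 ± 11.4 in controls. Nes, Ptprz1 and Glul followed at means of 46.5, 42.4 and 40.5 CPM per kb over the 6 libraries. These genes changed places between libraries, so their order lies within the spread.

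Aldoc and Tnc were next, at means of 28.3 and 27.1 CPM per kb, and also changed places. Slc1a3 followed in each library, between 15.1 and 17.6 CPM per kb. Prom1 and Gja1 had the lowest levels, at means of 9.20 and 6.32 CPM per kb, and changed places in 1 control library. Relatives of these genes gave a scale. Fabp5, another fatty acid binding protein, had 30.3 ± 3.01 CPM per kb in mutants and 29.9 ± 2.12 in controls. Aldoa, the aldolase of most tissues, had 49.9 ± 4.16 in mutants and 46.2 ± 5.12 in controls, above Aldoc. Both have near-identical copies elsewhere in the mouse genome, so their counts are uncertain. Slc1a2, another glial glutamate transporter, had 19.1 ± 1.54 in mutants and 20.03 ± 0.841 in controls. Gjb6, another astrocytic connexin, had 2.48 ± 0.621 in mutants and 1.95 ± 0.412 in controls. Gfap and S100b, which mark mature astrocytes, had at most 12 counts in any library and were not tested.

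**Figure D1:**
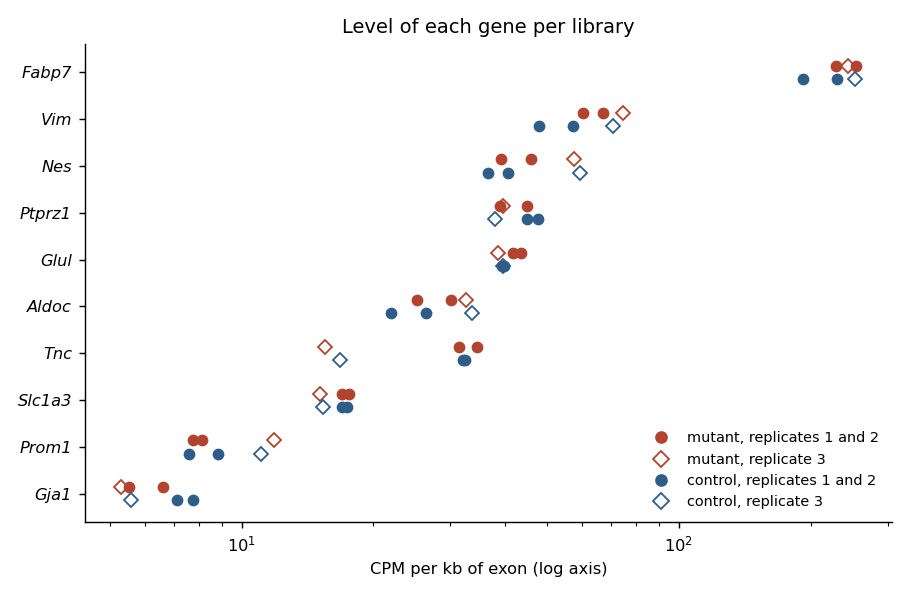
Level of each gene in CPM per kilobase of exon (log axis), with 1 symbol per library, mutants above controls, and open diamonds for replicate 3. Fabp7 lies between 192 and 254 CPM per kb and Gja1 between 5.31 and 7.73, and Tnc is the gene whose replicate 3 libraries lie farthest below the other 4.

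Between genotypes, none of the 10 genes was separated from the spread between libraries. By the quasi-likelihood test of edgeR, adjusted over 19616 tested genes (Benjamini-Hochberg), 0 of the 10 were called at an adjusted p under 0.05, where 0% of all tested genes were called. At an unadjusted p under 0.05 the count was again 0 of 10, against 1.92% of all tested genes (1.19% higher and 0.729% lower in mutants). Mutant and control libraries overlapped in all 10 genes. They did not overlap in 6.89% of all tested genes (3.19% higher and 3.7% lower in mutants), too small a share to set the 10 genes apart. Log2 fold changes, given throughout as mutant over control, were above 0 for 6 genes and below 0 for 4, against 47.5% of all tested genes above 0, and their median over the 10 was 0.03, against -0.01 over all tested genes. Summed over the 10 genes, mutants held 2223 ± 24.4 CPM and controls 2181 ± 28.7 CPM (SD, n = 3 each). The sums overlapped, at 2204 to 2251 CPM in mutants and 2159 to 2214 CPM in controls. Opposite differences of single genes between libraries cancel in such a sum.

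**Figure D2:**
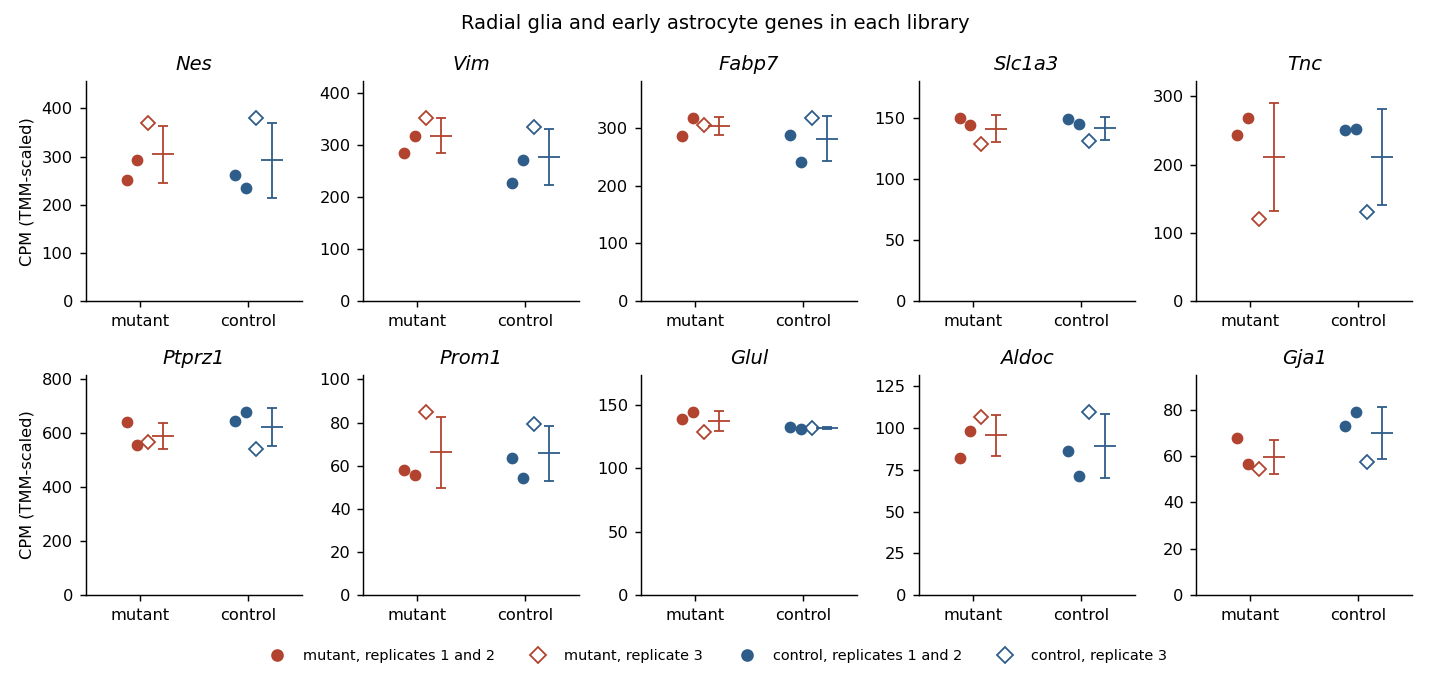
TMM-scaled CPM of each gene in each library, mutants left of controls, with open diamonds for replicate 3, horizontal marks for the mean and bars for the SD (n = 3). Mutant and control symbols overlap in every panel, and the diamonds lie above the circles of both genotypes for Nes, Vim, Prom1 and Aldoc and below them for Tnc and Slc1a3.

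The filament genes were Nes and Vim. Nes, which encodes nestin of neural stem cells, had 251, 294 and 369 CPM in mutant replicates 1, 2 and 3, against 261, 235 and 381 CPM in the controls. In both genotypes replicate 3 was the highest, and the groups overlapped. Its log2 fold change was 0.06 ± 0.20 (SE; 95% interval -0.38 to 0.50). Between genotypes its log2 CPM differed by 0.13 within replicates 1 and 2 and by -0.04 within replicate 3.

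Vim had 286, 317 and 353 CPM in mutants, against 228, 271 and 335 CPM in controls. Control replicate 3 was above mutant replicates 1 and 2, and the other 2 controls were below all mutants. The log2 fold change was 0.20 ± 0.14 (SE; 95% interval -0.13 to 0.52), the highest of the 10, and the adjusted p was 0.9999 (edgeR). With all 20 assignments of the libraries, a two-sided exact permutation test of its CPM gave p = 0.40; no p below 0.10 can arise in this design. Within replicates 1 and 2 its log2 CPM differed by 0.28 and within replicate 3 by 0.07, and the log2 fold change was 0.07 once control replicate 1 was left out. Vim also marks vessels and meninges. The 10 endothelial markers summed to between 360 and 368 CPM in mutants and between 333 and 368 in controls, and the 12 mural and meningeal markers to between 639 and 693 in mutants and between 594 and 761 in controls. Their part in the Vim values was not tested.

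Among the genes of glutamate handling and metabolism, Slc1a3 and Glul varied least. Slc1a3, the glutamate transporter GLAST, had 150.3, 145 and 129 CPM in mutants and 149, 145 and 131 CPM in controls. Replicate 3 was the lowest in both genotypes, and the groups covered nearly the same range. Its log2 fold change was -0.0042 ± 0.094 (SE), and the 95% interval in percent ran from -14.0% to 15.6%.

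Glul, the glutamine synthetase that converts glutamate taken up by glia, had 139, 145 and 128 CPM in mutants and 133, 131 and 132 CPM in controls. The control libraries spread by only 0.762 CPM (SD), and the mutants lay on both sides of them. The log2 fold change of 0.06 ± 0.08 (SE) had the narrowest interval of the set, from -8.37% to 18.3%. Its coefficient of variation within groups was 4.31%, and the counting error at its lowest count of 3233 was 1.76%.

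Fabp7 had 286, 317 and 304 CPM in mutants and 287, 241 and 317 CPM in controls. The groups covered nearly the same range, except for control replicate 2, which was the lowest. Its log2 fold change was 0.10 ± 0.11 (SE). Aldoc, the brain aldolase of glycolysis, had 82.0, 98.1 and 107 CPM in mutants and 86.1, 71.6 and 109.9 CPM in controls. Replicate 3 was the highest in both genotypes, and the log2 fold change was 0.10 ± 0.16 (SE), or -0.04 without control replicate 2.

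The genes of the matrix and cell surface included Tnc, the most variable of the 10. Tnc, which encodes the matrix protein tenascin-C of the stem cell niche, had 244, 268 and 120.4 CPM in mutants and 249.9, 252 and 131 CPM in controls. Replicate 3 held less than all other libraries in both genotypes. The genotype means of 211 ± 79.3 CPM in mutants and 211 ± 69.5 CPM in controls (SD, n = 3 each) were almost equal. The log2 fold change of -0.00063 ± 0.32 (SE) had the widest interval of the 10, from -39.4% to 65.0%.

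Ptprz1, a receptor tyrosine phosphatase that binds tenascins, contactin and pleiotrophin, had the highest CPM of the set. It had 641, 555 and 564 CPM in mutants and 642, 678 and 541 CPM in controls. Mutant replicate 1 and the first 2 controls were higher than the other libraries, and the log2 fold change was -0.08 ± 0.11 (SE). Prom1, whose product prominin-1 sits on apical membrane protrusions of neural progenitors, had 58.1, 55.5 and 85.1 CPM in mutants and 63.4, 54.4 and 79.4 CPM in controls. Replicate 3 was again the highest in both genotypes, and the log2 fold change was 0.01 ± 0.19 (SE).

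Gja1 encodes connexin 43, the gap junction protein that couples radial glia and, later, astrocytes. It had 67.8, 56.6 and 54.5 CPM in mutants, against 73.2, 79.2 and 57.4 CPM in controls. Control replicates 1 and 2 were above all mutants, but control replicate 3 was below mutant replicate 1. The log2 fold change was -0.23 ± 0.14 (SE; 95% interval -0.54 to 0.08), the lowest of the 10, with an adjusted p of 0.9999 (edgeR) and p = 0.20 in the two-sided exact permutation test of CPM. Its log2 CPM differed by -0.30 within replicates 1 and 2 and by -0.08 within replicate 3. When control replicate 2 was left out, the log2 fold change was -0.13. Gja1 is also made in meninges, whose marker sums are given above with Vim, and their part was not tested.

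Vim and Gja1 were the 2 genes whose unadjusted p fell under 0.05 in some of the alternative fits; that of other genes moved too, without passing 0.05. With only replicates 1 and 2, edgeR gave 0.28 (unadjusted p = 0.0168, adjusted p = 0.598) for Vim and -0.29 (unadjusted p = 0.0153, adjusted p = 0.592) for Gja1. In that fit 7.86% of all tested genes had an unadjusted p under 0.05. With a term for the replicate 3 libraries, edgeR gave 0.21 (unadjusted p = 0.0401, adjusted p = 0.969) for Vim and -0.22 (unadjusted p = 0.0348, adjusted p = 0.969) for Gja1, where 4.31% of all tested genes were under 0.05. Without control replicate 3, edgeR gave 0.36 (unadjusted p = 0.0147, adjusted p = 0.881) for Vim and -0.34 (unadjusted p = 0.0155, adjusted p = 0.881) for Gja1, where 5.33% were. Nes, Fabp7 and Aldoc stood at 0.30, 0.21 and 0.28 in that fit (edgeR unadjusted p = 0.0806, 0.0927 and 0.0632). Without mutant replicate 3 both differences were smaller, at 0.12 (edgeR unadjusted p = 0.458) for Vim and -0.16 (edgeR unadjusted p = 0.287) for Gja1. The fits without control replicate 3 and without mutant replicate 3 each kept replicate 3 in a single genotype. In them genotype and replicate 3 are partly confounded and cannot be fully told apart. With sample weights in limma-voom, where 9.71% were under 0.05, Vim stood at 0.30 (limma unadjusted p = 0.0245, adjusted p = 0.455) and Gja1 at -0.21 (limma unadjusted p = 0.0702, adjusted p = 0.552). The weights ran from 0.38 for control replicate 3 to 3.40 for control replicate 1, the library with the lowest Vim.

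**Figure D3:**
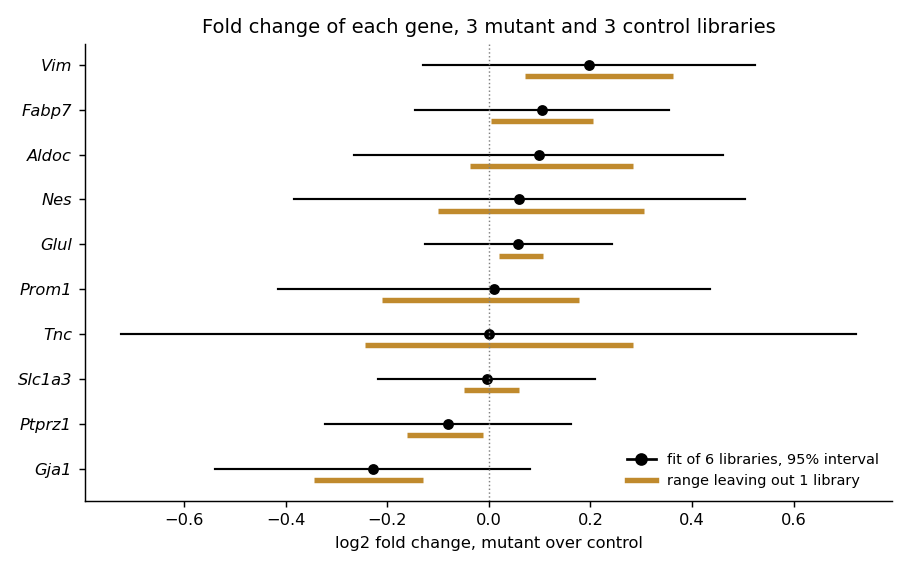
Log2 fold change of each gene, mutant over control, with the 95% interval of the fit of 6 libraries (black) and the range when 1 library was left out (ochre). Every interval includes 0. The intervals of Tnc and Nes are the widest and that of Glul the narrowest, and the ochre ranges of Vim, Fabp7 and Glul stay above 0 and those of Ptprz1 and Gja1 below it.

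In both genotypes, Nes, Vim, Tnc, Prom1, Aldoc and Slc1a3 differed more between replicate 3 and the other replicates than their log2 fold change between genotypes. They did not all differ in the same direction. For Vim the value in mutants, 0.23, was above its log2 fold change of 0.20. It was below the 0.28 between genotypes within replicates 1 and 2. The replicate 3 values describe 1 library per genotype and carry no test. Nes, Vim, Prom1 and Aldoc (4 of the 10) were higher in the replicate 3 libraries of both genotypes than in all 4 other libraries, where 17.3% of all tested genes were. Tnc and Slc1a3 (2 of the 10) were lower in both than in the other 4, where 17.1% of all tested genes were. In log2 CPM, replicate 3 minus the mean of replicates 1 and 2, Nes stood at 0.44 in mutants and 0.62 in controls, Prom1 at 0.58 and 0.43, Aldoc at 0.25 and 0.48, and Vim at 0.23 and 0.43. Tnc stood at -1.09 in mutants and -0.94 in controls, or 0.470 and 0.521 times the level of replicates 1 and 2. In mutants and controls, Slc1a3 stood at -0.19 and -0.17, Gja1 at -0.19 and -0.41, and Ptprz1 at -0.08 and -0.29. Fabp7 stood at 0.02 in mutants and 0.27 in controls, and Glul at -0.14 in mutants and -0.0020 in controls.

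Ratios of 2 genes within a library do not depend on how libraries are scaled. The ratio of Nes to Tnc in CPM was 3.07 in mutant replicate 3 and 2.91 in control replicate 3, against 1.03 and 1.09 in mutant replicates 1 and 2 and 1.04 and 0.932 in control replicates 1 and 2. It averaged 1.73 ± 1.16 in mutants and 1.63 ± 1.11 in controls (SD, n = 3 each; two-sided exact permutation p = 0.60). The ratio of Prom1 to Gja1 was 1.56 and 1.38 in the replicate 3 libraries of mutants and controls, and between 0.687 and 0.981 in the other 4. The ratio of Glul to Slc1a3 stayed between 0.889 and 1.00 in all 6 libraries. Glul and Slc1a3 were the pair whose profiles were closest, and Nes and Tnc the pair farthest apart. Their ratios therefore restate those distances and add no separate evidence.

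**Figure D4:**
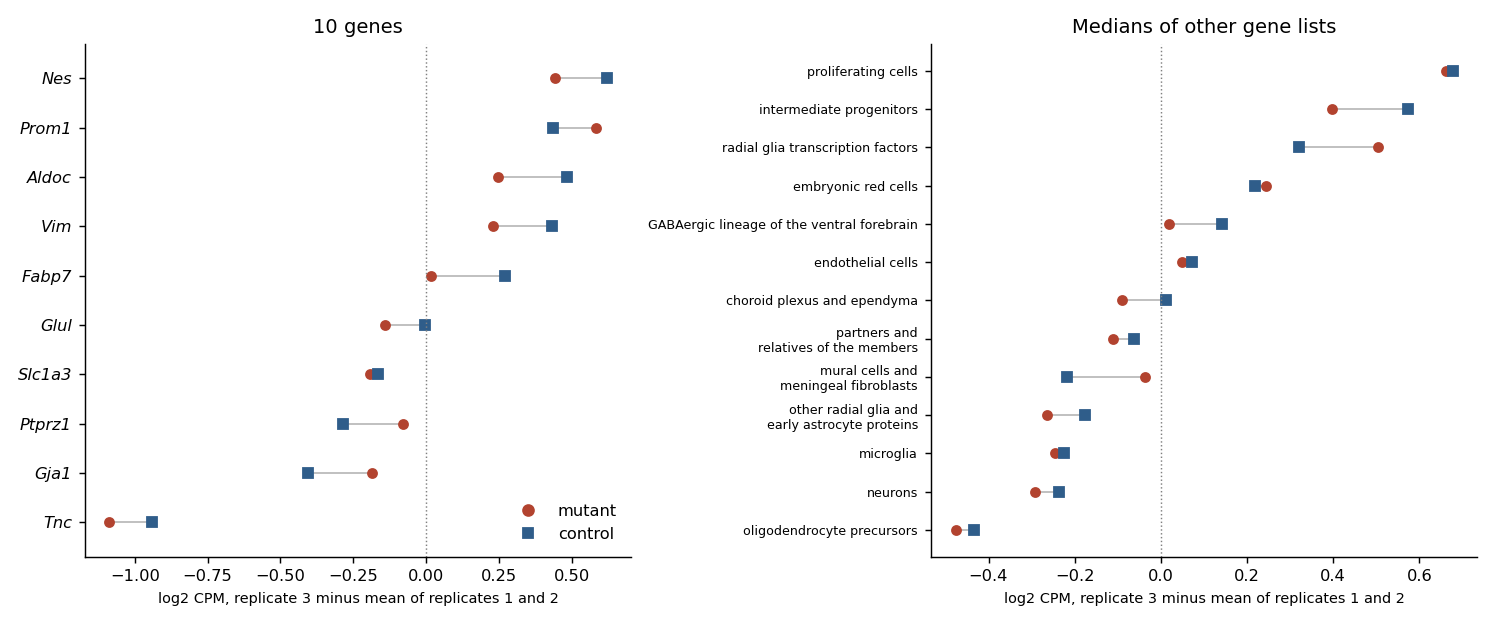
Log2 CPM of replicate 3 minus the mean of replicates 1 and 2 in mutants (circles) and controls (squares), for the 10 genes (left) and as medians of the other gene lists (right). Nes, Prom1, Aldoc and Vim lie above 0 and Tnc, Gja1, Ptprz1 and Slc1a3 below in both genotypes, and the lists of proliferating cells and of oligodendrocyte precursors lie at the ends on the right.

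Other lists were described the same way. The 15 genes of proliferating cells were all higher in both replicate 3 libraries than in the other 4, with medians of 0.66 in mutants and 0.68 in controls (log2 CPM, replicate 3 minus replicates 1 and 2), in the same direction as Nes and Prom1. Their summed level was 2411 and 2304 CPM in replicate 3 of mutants and controls, against 1352 to 1476 CPM in the other 4 libraries. Oligodendrocyte precursor genes, a cell type that also makes Tnc and Ptprz1, had medians of -0.48 and -0.43, with 5 of 7 lower in both replicate 3 libraries than in the other 4. The 12 neuronal genes had medians of -0.29 and -0.24. Of 8 embryonic red cell genes, 5 were higher and 3 lower in both replicate 3 libraries than in the other 4, with medians of 0.24 and 0.22. The 3 lower ones were Hba-a1 and Hba-a2, near-identical globin genes whose counts are uncertain, and the heme synthesis gene Alas2, at -0.22, -0.32 and -0.31 in mutants and -0.28, -0.33 and -0.47 in controls. Hbb-y, an embryonic globin with the largest difference of that list, stood at 322 and 321 CPM in replicate 3 of mutants and controls, against 27.8 to 42.5 CPM in the other 4 libraries. These red cell genes were named after their values were seen. Mural and meningeal markers had medians of -0.04 and -0.22, endothelial markers of 0.05 and 0.07, and choroid plexus and ependymal markers of -0.09 and 0.01. Whether any of these cell types accounts for the values of the 10 genes was not tested.

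Of 15 radial glia transcription factors, 8 were higher in both replicate 3 libraries than in the other 4 and 1 was lower, with medians of 0.51 in mutants and 0.32 in controls. Among them Pax6 and Hes5, which maintain radial glia, stood at 0.60 and 0.49 in mutants and 0.52 and 0.66 in controls. Of 26 tested proteins of radial glia and early astrocytes other than the 10, 4 were higher and 11 lower in both replicate 3 libraries, with medians of -0.27 in mutants and -0.18 in controls. The lowest were the GABA transporter gene Slc6a11, at -1.18 and -0.94, and the bicarbonate transporter gene Slc4a4, at -1.12 and -0.97, close to Tnc. The astrocyte enzyme gene Aldh1l1 stood at -0.68 and -0.40 in mutants and controls. Others of the list went the other way, with Fgfr3 at 0.56 in mutants and 0.73 in controls and Ttyh1 at 0.45 and 0.56. These examples were chosen after their values were seen.

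**Figure D5:**
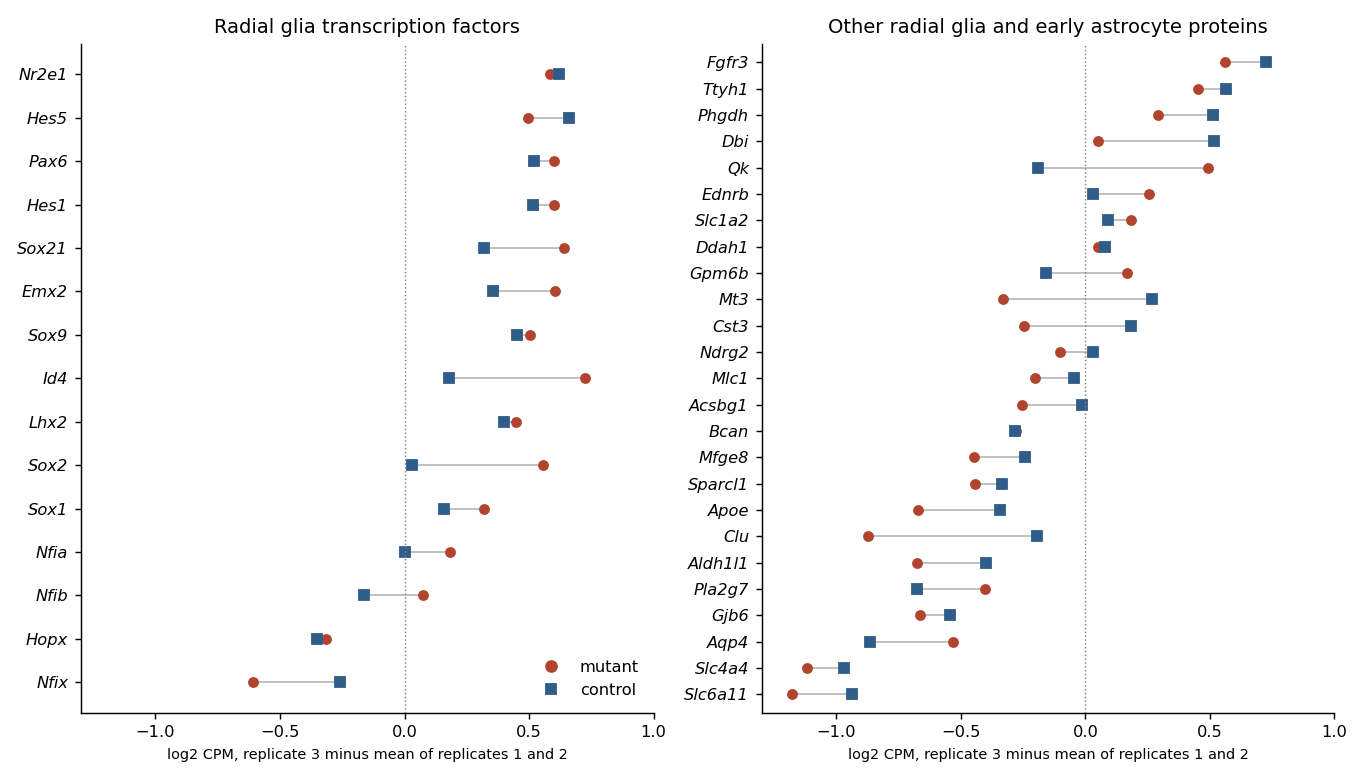
The same difference, replicate 3 minus the mean of replicates 1 and 2 in log2 CPM, for 15 radial glia transcription factors and for the other radial glia and early astrocyte proteins reported here, with circles for mutants and squares for controls. Most transcription factors lie above 0. Among the other proteins, Slc6a11, Slc4a4, Aqp4 and Gjb6 lie far below 0 in both genotypes, and Fgfr3 and Ttyh1 lie above it.

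Between genotypes these lists held no called gene either. Among the 15 transcription factors the log2 fold change was positive in 11 and negative in 4, its median was 0.05, and 0 passed adjustment (edgeR). Sox2, a stem cell transcription factor, had the smallest p of that list, at 0.40 ± 0.16 (SE, edgeR unadjusted p = 0.0329, adjusted p = 0.9999). It had 76.6, 72.4 and 109.6 CPM in mutants, against 58.9, 71.1 and 66.1 CPM in controls, without overlap of the groups. Sox2 lies within a longer noncoding gene, so its count is uncertain. Of the 26 other glial proteins, 18 were positive and 8 negative (median 0.04). Cst3, a secreted protease inhibitor of glia and microglia, had the smallest p there, at 0.34 ± 0.11 (SE, edgeR unadjusted p = 0.0110, adjusted p = 0.9999), with 83.5, 87.6 and 72.2 CPM in mutants and 57.8, 64.7 and 69.4 CPM in controls. The 8 microglial markers summed to between 47.3 and 61.9 CPM in mutants and between 47.5 and 60.5 CPM in controls. Among 7 genes of intermediate progenitors, the neurogenic daughters of radial glia, 5 were positive and 2 negative (median 0.07). Gadd45g, which is expressed in such progenitors, stood at 0.70 ± 0.21 (SE, edgeR unadjusted p = 0.00958, adjusted p = 0.9999). It averaged 24.1 ± 4.26 CPM in mutants and 14.8 ± 4.29 CPM in controls (SD, n = 3 each), and the groups did not overlap. The 10 genes of the GABAergic lineage had a median of 0.03, with 8 positive and 2 negative.

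Partners and relatives of the 10 genes, such as their ligands, matrix neighbours and paralogs, were 31 tested genes, 18 positive and 13 negative (median 0.02), with 0 called. Ptn, which encodes the Ptprz1 ligand pleiotrophin, had 251, 249.9 and 225 CPM in mutants and 251, 245 and 209.8 CPM in controls. Mdk, which encodes the related ligand midkine, had 37.3, 47.5 and 55.5 CPM in mutants and 32.2, 39.1 and 53.6 CPM in controls. Ptn was lowest and Mdk highest in replicate 3 of both genotypes. Tnr and Cntn1, which encode tenascin-R and contactin-1, stood at -0.84 and -0.78 in mutants and -0.73 and -0.74 in controls (log2 CPM, replicate 3 minus replicates 1 and 2), as Tnc did. These 4 were likewise chosen after their values were seen.

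The profile over libraries was compared between genes as the root mean square distance of centred log2 CPM over the 6 libraries. Glul and Slc1a3 were the closest pair of the 10, at 0.07 log2 units, and Tnc and Nes the farthest apart, at 0.73, with a median of 0.29 over all pairs. Nes was nearest to Aldoc (0.09), Prom1 to Nes (0.12), and Gja1 to Ptprz1 (0.09). Tnc had no close neighbour, since its nearest was Gja1 at 0.38. Among 12783 other genes with a mean of at least 5 CPM, Vps26b, Mto1, Sugp2, Gtpbp2 and Copg1 were nearest to the median profile of the 10, at 0.015 to 0.017 log2 units. In those 5 genes replicate 3 differed from replicates 1 and 2 by -0.06 to 0.12 in log2 CPM. The median profile was itself nearly flat, from -0.08 in control replicate 2 to 0.07 in mutant replicate 2. The 10 genes lay between 0.049 (Glul) and 0.49 (Tnc) log2 units from it. Closeness to the median profile is therefore not closeness to each of the 10 genes.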

How the data were processed

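Per the labels' protocols, single-end libraries were made from forebrain RNA with a stranded total RNA kit after removal of ribosomal RNA. The labels also name polyA RNA as the molecule. Per the submitters' processing notes, bcl2fastq 2.17.1.14, HISAT2, SAMtools 1.9 and HTSeq 0.9.1 were used on GRCm38 (release 93, per the design text). The deposited values are raw read counts per gene, with no normalization by the authors. No source used here gives the counting mode or strand setting.

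Symbols, coordinates and exon lengths came from GENCODE M21 on the same build, which named 32888 of 33084 identifiers. Counts were tested with edgeR 4.0.16 in R 4.3.3: filterByExpr (minimum count 10, minimum total 15) left 19616 genes, scaling was by TMM, and the robust quasi-likelihood F test compared mutants with controls without covariate. P-values were adjusted over all tested genes by Benjamini-Hochberg, with a threshold of 0.05. Log2 CPM used a prior count of 2. Single genes were also compared by two-sided exact permutation tests. The fit was tested on simulated data. Intervals cover the spread between libraries. Replicates of a group differed beyond sampling noise (chi-square per degree of freedom between 10.1 and 32.9). Figures used matplotlib 3.10.9.

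The 10 genes and the other lists were chosen with earlier results of these data known. By rule, text names all 10 genes, up to 2 genes with the smallest p per list, named relatives and the 5 genes of nearest profile; exceptions are marked. Alternatives were other scalings, filters and tools (DESeq2 1.42.0, limma 3.58.1), a replicate block, a term for replicate 3, replicates 1 and 2 only, removal of GC content and length trends, and leaving out each library. A gene in the list of other glial proteins is counted there but not reported here by itself.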

Additional observations from a re-analysis of the deposited data

How the results depend on the processing

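In all 18 alternatives 0 of the 10 genes passed adjustment, and the signs of Vim, Fabp7, Glul, Ptprz1 and Gja1 held. None of the alternatives took replicate 3 alone. In log2 CPM, mutant minus control, the sign differed between replicates 1 and 2 and replicate 3 in 8 of the 10 genes. Among the 8 were Fabp7 (0.20 and -0.06), Glul (0.10 and -0.04) and Ptprz1 (-0.15 and 0.06). Vim and Gja1 kept their sign in both. With replicates 1 and 2 only, 3 genes of the whole table were called (Hist1h2ag, Pisd-ps1 and Tmem181b-ps), none of the 10 and named after their values were seen. Every other alternative called 0 genes (DESeq2 had 292 at an unadjusted p under 0.05, limma-voom 393, and edgeR with all 6 libraries 376). The median log2 fold change of the 10 genes ran from -0.0041 (without control replicate 2) to 0.12 (without control replicate 3). Fold changes near 0 changed sign, all without a call. Tnc was at 0.0029 with DESeq2's size factors, 0.0014 with library totals, 0.00079 without filter, 0.0098 with a mean of at least 1 CPM, 0.0026 in DESeq2, 0.033 with replicates 1 and 2 only and 0.017 with GC content and length trends removed. Slc1a3 was at 0.0074 with a mean of at least 1 CPM, 0.0081 with replicates 1 and 2 only and 0.034 with GC content and length trends removed. Prom1 was at -0.0041 in limma-voom, -0.051 with sample weights, -0.0011 with a term for replicate 3 and -0.048 with replicates 1 and 2 only. Leaving out 1 library gave -0.10 to 0.30 for Nes, -0.050 to 0.060 for Slc1a3, -0.24 to 0.28 for Tnc, -0.21 to 0.18 for Prom1 and -0.037 to 0.28 for Aldoc; the cause was not tested. The control median of replicate 3 minus replicates 1 and 2 was 0.087 with upper-quartile scaling, against 0.13.

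For each gene, the mean log2 CPM of its genotype was subtracted from each library. These deviations, not the levels themselves, correlated across genes at 0.24, 0.07 and 0.36 between same-numbered libraries. By that measure mutant replicate 1 was closest to control replicate 2 (0.35). These correlations cannot decide whether the numbers pair the embryos, since the labels do not state litters. With the replicate number as a block, edgeR gave 0.21 for Vim (unadjusted p = 0.0227, adjusted p = 0.987) and -0.22 for Gja1 (unadjusted p = 0.0421, adjusted p = 0.987). In that replicate block fit 765 of 19616 genes had an unadjusted p under 0.05, 0 were called, and the median of the 10 was 0.03. That count was 587 without filter, 1904 in limma-voom with sample weights, 845 with a term for replicate 3, 1544 with replicates 1 and 2 only, and 179 to 1060 when 1 library was left out. With 3 libraries per group, the 95% intervals of all 10 genes included 0.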
